A study of Mus musculus with 4 samples.

Results

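CC chemokines that draw eosinophils, monocytes and type 2 helper T (Th2) cells into tissue were measured in mouse lung RNA from WT and Rab44-KO mice. The 10 genes were taken by name from the deposited count table, where Ccl2, Ccl7, Ccl8, Ccl9, Ccl11, Ccl12, Ccl17, Ccl20, Ccl22 and Ccl24 were all found among 41079 genes. The study asks whether Rab44, a large Rab GTPase of immune cells, contributes to ovalbumin (OVA)-induced allergic airway inflammation. Whole lung RNA was sequenced as 4 libraries, 1 per condition, from normal WT and Rab44-KO mice and from OVA-induced WT and Rab44-KO mice. Both genotypes were female littermates aged 8 to 14 weeks on a C57BL/6 background, and the knockout was made in the whole body by CRISPR/Cas9 editing, so it is not limited to one cell type. For the OVA-induced groups, 3 intraperitoneal doses of 100 μg OVA with an alum adjuvant came first, on days 0, 7 and 14. They then received 100 μg OVA in 50 μL intranasally on 4 days, from day 17 to day 20, and tissue was taken on day 21. The labels call the normal groups control and give them no treatment, whereas the protocol attached to the labels also names a PBS challenge. How many mice were pooled in a library is not given in the sources used here.

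Chemokines are small secreted proteins that guide leukocytes along a gradient through receptors on the cell surface. In allergic airways, eotaxins act on Ccr3 of eosinophils, monocyte chemoattractant proteins (MCPs) act mainly on Ccr2 of monocytes, and Ccl17 and Ccl22 act on Ccr4 of Th2 cells. Epithelial cells, macrophages, dendritic cells and fibroblasts all make members of this family, and type 2 cytokines, tumour necrosis factor and interferons are known inducers.

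The library totals ranged from 18112901 to 19910236 counts, and the 10 chemokines took between 589 and 5010 counts of a library. Rab44 had 251 counts in normal WT and 810 in OVA-induced WT lungs, against 1 and 0 counts in the matching Rab44-KO libraries. Lung markers were abundant throughout, with 181126 to 361981 counts of the surfactant gene Sftpc and 320451 to 440878 of the club cell gene Scgb1a1. In the OVA-induced pair, Sftpc was 2.01-fold lower in Rab44-KO, and 6 of 6 alveolar type 2 markers, Sftpc included, were lower. They summed to 16690 against 28977 CPM, the counts scaled to a common library size, although their median log2 fold change (log2FC) of -0.64 turned to 0.11 when scaled to housekeeping genes. Ribosomal protein genes took 1.84% against 2.83% of the counts of these 2 libraries, and 2.19% and 2.29% in normal lungs. The OVA-induced pair differed along gene length and in reference genes. In Rab44-KO over WT, the median log2FC was -0.38 over the shortest 25% of genes and 0.33 over the longest 25%, and 7 of 7 housekeeping genes found were lower, by a median log2FC of -0.75. The chemokines are short transcripts, with a median at percentile 7.91 of the length scale, so counts under other scalings are given for the members and for the chemokine, receptor and main marker lists of this pair. In Rab44-KO over WT among OVA-induced lungs, scaling to housekeeping genes put 2.78% of all genes past 2-fold on the lower side and 33.6% on the higher side. The shares were 4.03% and 13.5% in TPM, which also divide by gene length, and 5.73% and 9.01% with the length trend removed. Heart muscle genes also moved with genotype in this pair. Of 6, 3 (5 when scaled to housekeeping genes) were over 2-fold higher in the OVA-induced Rab44-KO library, where 8.4% of all genes were as reported. They had a summed level of 679 against 306 CPM. In normal WT and Rab44-KO the sums were 700 and 772 CPM, so the OVA-induced WT library was the low one, and it is also the library in which each member was highest. The part of these differences in the chemokine values was not tested.

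The members lie in several places of the genome. In GRCm38 (GENCODE M21), Ccl2, Ccl7, Ccl11, Ccl12 and Ccl8 stand in this order on the plus strand of chromosome 11, between chr11:82035571-82037453 for Ccl2 and chr11:82115185-82116799 for Ccl8. Ccl9 is on the minus strand of the same chromosome at chr11:83572919-83578636. Ccl22 and Ccl17 are neighbours on chromosome 8 at chr8:94745590-94751699 and chr8:94810453-94812036, Ccl20 is at chr1:83116766-83119167 and Ccl24 is at chr5:135569937-135573049 on the minus strand. Ccl2 lies wholly inside Gm17268, annotated on the opposite strand, which has no row in the count table. The library kit named in the labels keeps strand, whereas the strand setting of the counting is not stated. No stretch of 150 bases was shared between a member's transcripts and those of another gene.

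Upstream windows of 250 bases ending at the annotated start were found in RefSeq (GRCm38.p6) for 6 of the 10 members, and were not found for Ccl2, Ccl7, Ccl11 and Ccl24. The windows are shown for Ccl8 and Ccl12 because they are neighbours of the MCP cluster with unequal genotype differences, for Ccl17 because it holds STAT-type letters, and for Ccl20 because it was the least expressed member in normal lungs. Capitals mark the letters TATAAA in Ccl8 and Ccl12, TTC and GAA spaced 4 bases and 3 bases apart in Ccl17, and a match to the kappa B consensus on the minus strand in Ccl20. The windows are chr11:82114935-82115184 for Ccl8, chr11:82101595-82101844 for Ccl12, chr8:94810203-94810452 for Ccl17 and chr1:83116516-83116765 for Ccl20, all on the plus strand.
Ccl8: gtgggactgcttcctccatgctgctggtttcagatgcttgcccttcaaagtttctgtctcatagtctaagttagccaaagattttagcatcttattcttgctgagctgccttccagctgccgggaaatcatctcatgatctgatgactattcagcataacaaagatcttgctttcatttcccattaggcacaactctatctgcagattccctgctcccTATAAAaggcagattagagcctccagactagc
Ccl12: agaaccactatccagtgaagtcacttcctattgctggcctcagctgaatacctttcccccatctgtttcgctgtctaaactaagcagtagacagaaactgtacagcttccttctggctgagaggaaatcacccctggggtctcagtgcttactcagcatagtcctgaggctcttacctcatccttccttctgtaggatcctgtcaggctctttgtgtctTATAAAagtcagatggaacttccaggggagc
Ccl17: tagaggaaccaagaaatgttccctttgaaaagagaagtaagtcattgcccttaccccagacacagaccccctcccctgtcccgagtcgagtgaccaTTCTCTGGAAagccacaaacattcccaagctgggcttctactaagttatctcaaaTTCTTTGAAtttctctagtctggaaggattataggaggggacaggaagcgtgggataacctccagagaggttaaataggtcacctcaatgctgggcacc
Ccl20: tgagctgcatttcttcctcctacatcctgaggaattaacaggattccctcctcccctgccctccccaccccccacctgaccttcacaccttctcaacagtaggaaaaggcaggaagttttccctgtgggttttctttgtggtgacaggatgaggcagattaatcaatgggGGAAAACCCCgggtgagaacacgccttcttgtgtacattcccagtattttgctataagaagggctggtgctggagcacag
The RefSeq gene span of Ccl17 begins further upstream, at position 94809380, so its window lies upstream of one annotated start and inside that longer span.

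Both strands were searched for each motif. TATAAA was found at -32 to -27 in Ccl8, at -31 to -26 in Ccl12 and at 3 places in Ccl9, 2 of them overlapping, and it occurs in 12.4% of 32851 RefSeq windows of the same length. The 4-base spacing of TTC and GAA, known from STAT6 sites, was found in Ccl17 at -154 to -145 and in 5.85% of all windows, and the 3-base spacing was found in Ccl17 at -99 to -91 and in 7.02% of all windows. Matches to the kappa B consensus were found in Ccl20 at -80 to -71 and in Ccl9 at -35 to -26, against 3.90% of all windows. TGANTCA, the AP-1 letters, was found in Ccl9 at -53 to -47 and in 6.75% of all windows. None of these letters was found in the window of Ccl22. A match describes the letters of a window and does not show binding.

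All 10 chemokines were highest in the OVA-induced WT library. In OVA-induced lungs they were lower in Rab44-KO than in WT by log2FC from -1.05 to -4.81. In normal lungs 8 of the 9 with at least 10 counts were higher in Rab44-KO, 5 of them beyond counting error, as were 14.6% of genes. Where 4 counts of a gene are given in a row, they stand for normal WT and Rab44-KO, then OVA-induced WT and Rab44-KO. Fold changes are ratios of CPM after TMM scaling. Ranges are exact 95% intervals for counting error only, and no difference has a replicate check because each condition is 1 library.

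**Figure D1:**
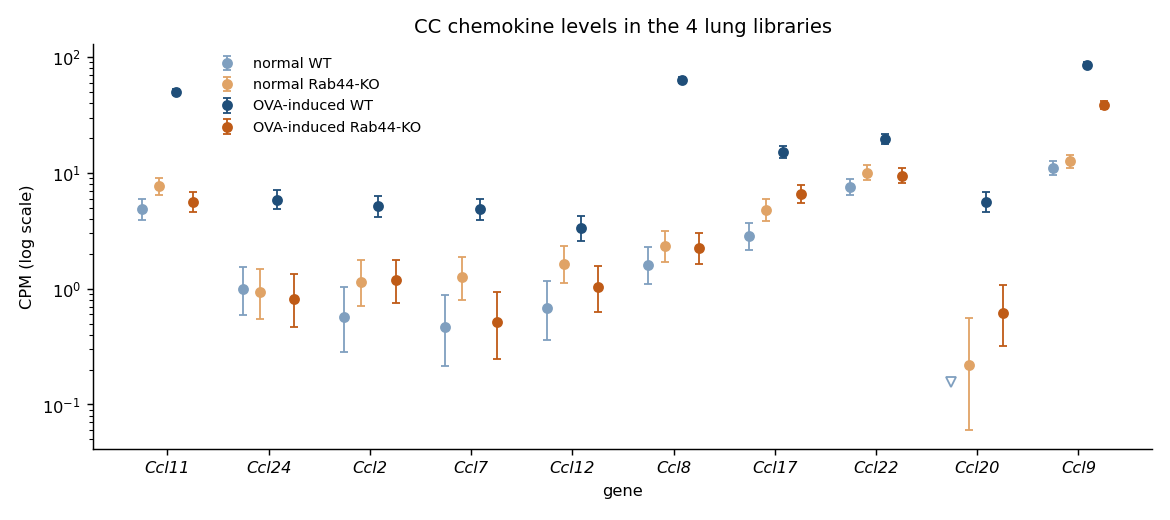
Levels of the 10 CC chemokines in the 4 lung libraries, in CPM on a log axis with exact 95% Poisson intervals for counting error. The open triangle marks Ccl20 in normal WT, which had 0 counts and is drawn at the floor of 3 counts, and the OVA-induced WT point is the highest of each gene.

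The eotaxins Ccl11 and Ccl24 signal through Ccr3, the main chemokine receptor of eosinophils. Ccl11 had 94, 141, 965 and 110 counts. The OVA-induced WT library stood apart from the other 3, which lay between 4.90 and 7.73 CPM. In normal lungs Ccl11 was 1.58-fold higher in Rab44-KO (log2FC 0.66, 0.27 to 1.05), and in OVA-induced lungs it was 8.82-fold lower (log2FC -3.14, -3.44 to -2.86).

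Ccl24 had 19, 17, 114 and 16 counts. Its normal libraries differed by a log2FC of -0.09 with a range that spans 0 (-1.12 to 0.94), and that sign turned when the values were scaled to housekeeping genes. In OVA-induced lungs it was 7.12-fold lower in Rab44-KO (log2FC -2.83, -3.70 to -2.08). With OVA in WT, Ccl11 was 10.2-fold higher (8.23 to 12.7) and Ccl24 5.92-fold higher (3.64 to 10.2). In Rab44-KO, Ccl11 was 1.37-fold lower with OVA (1.06 to 1.77) and the range of Ccl24 spanned no difference.

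Ccr3 itself had 114 and 153 counts in normal WT and Rab44-KO and 490 and 94 counts in OVA-induced WT and Rab44-KO lungs. It was 5.24-fold lower in OVA-induced Rab44-KO, the lowest log2FC among the receptors (-2.39, -2.73 to -2.07). Of 10 eosinophil markers, which include Ccr3, 8 had enough counts and 6 were over 2-fold lower in OVA-induced Rab44-KO, where 7.34% of all genes were. The list's summed level was 144 against 263 CPM in this pair, of which Ear2 gave 92.8 against 135 CPM, and 112 to 113 CPM in normal lungs. Ear1 and Siglecf also stand in the alveolar macrophage list. The 6 became 4 in TPM and 4 when scaled to housekeeping genes. Ear6, an eosinophil-associated ribonuclease, had 110 against 8 counts, and Alox15, a lipoxygenase that macrophages also express, had 942 against 190. Another of these ribonucleases, Ear1, was the 1 marker of the list that was higher, with 258 against 436 counts. The granule genes that define eosinophils, named after their values were seen, were scarce, with at most 1 count of Epx (eosinophil peroxidase) and 3 of Prg3 in a library, whereas Prg2 (major basic protein) had 185 against 48 counts in the OVA-induced pair. The part of eosinophil number in the eotaxin values was not tested, and in bulk lung RNA fewer cells of a type and less RNA per cell cannot be told apart.

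The MCPs Ccl2, Ccl7, Ccl12 and Ccl8 attract monocytes and, for Ccl8 in the mouse, Th2 cells bearing Ccr8. Ccl8 had 31, 43, 1226 and 44 counts. Its Rab44-KO libraries lay within counting error of each other (log2FC with OVA -0.06, -0.70 to 0.58), while it was 39.1-fold higher with OVA in WT (27.5 to 58.0). Its OVA-induced genotype difference was the largest of the members, 28.0-fold (20.8 to 38.8), and ranked 18 from the lowest among 13704 genes with at least 100 counts.

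Ccl2 had 11, 21, 100 and 23 counts. It was 8.92-fold higher with OVA in WT and 1.03-fold higher in Rab44-KO, where the range spans no difference (log2FC 0.04, -0.88 to 0.96). The log2FC for genotype was 0.998 (-0.11 to 2.21) in normal and -2.12 (-2.85 to -1.46) in OVA-induced lungs. Ccl7 had 9, 23, 94 and 10 counts. In normal lungs it was 2.67-fold higher in Rab44-KO (1.20 to 6.60), a range that overlaps those of Ccl12 and Ccl2, and it was the only member over 2-fold lower with OVA in Rab44-KO lungs (2.44-fold, 1.12 to 5.78). In OVA-induced lungs Ccl7 was 9.36-fold lower in Rab44-KO (log2FC -3.23, -4.35 to -2.30).

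Ccl12, a mouse MCP with no direct human counterpart, had 13, 30, 65 and 20 counts. In Rab44-KO it was 2.41-fold higher in normal lungs (1.23 to 5.07) and 3.26-fold lower in OVA-induced lungs (1.96 to 5.70). Ccl12 thus differed less than its neighbour Ccl8 in OVA-induced lungs, and the ranges of the fold differences do not meet. Ccl2, Ccl7 and Ccl12 each had at most 30 counts in 3 of the 4 libraries, so their folds carry wide ranges.

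The receptor of Ccl2, Ccl7 and Ccl12, Ccr2, had 979, 855, 1780 and 1043 counts. It was 1.72-fold lower in OVA-induced Rab44-KO (log2FC -0.78, -0.89 to -0.67), nearer to 0 than any member, although its range overlaps that of Ccl22. Of 10 monocyte and monocyte-derived macrophage markers, 5 were over 2-fold lower in OVA-induced Rab44-KO, where 7.34% of all genes were, and none was higher. They summed to 356 against 710 CPM, with 301 and 310 CPM in normal lungs. None of these markers was at 0 in a library. The 5 became 4 in TPM or with the length trend removed and 3 when scaled to housekeeping genes, where the log2FC of Ccr2 was -0.03. Ms4a7 differed most, with 74 against 332 counts, and their part in the MCP values was not tested.

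Ccl17 and Ccl22 are ligands of Ccr4 and are made largely by dendritic cells and macrophages. Ccl17 had 55, 88, 294 and 129 counts, and Ccl22 had 146, 183, 381 and 185. Among normal lungs both were higher in Rab44-KO, by 1.68-fold (1.19 to 2.40) and 1.32-fold (1.06 to 1.65). In OVA-induced lungs they were 2.29-fold (1.86 to 2.84) and 2.07-fold (1.73 to 2.48) lower in Rab44-KO.

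These are the smallest OVA-induced differences along with Ccl9, and their ranges reach below 2-fold. Ccl17 was still 1.37-fold higher with OVA in Rab44-KO lungs (1.04 to 1.82), whereas the 2 Rab44-KO values of Ccl22 lay within counting error of each other. Ccr4 had 9, 29, 55 and 18 counts and was 3.06-fold lower in OVA-induced Rab44-KO (1.78 to 5.57). Among dendritic cell markers 5 of 8 were over 2-fold lower there, where 7.34% of all genes were, and the list summed to 164 against 243 CPM. Among T cell markers 5 of 8 were over 2-fold lower, summing to 66.7 against 128 CPM. Th2 and innate lymphoid cell markers, which include Ccr4, were over 2-fold lower for 5 of 8 with enough counts, while their summed level was 108 against 88.3 CPM. Rora gave 87.8 against 48.3 CPM of this sum, and without it the sum was 20.2 against 40.02 CPM. Of the dendritic cell markers 2 were higher, and the 5 lower ones became 2 in TPM, 4 with the length trend removed and 1 when scaled to housekeeping genes. For T cells the 5 became 3 with total counts and 0 under each of these 3 scalings, and for the Th2 and innate lymphoid list they became 4 with total counts and then 3, 4 and 1. In normal lungs the sums were 151 and 166 CPM for dendritic cells and 54.9 and 57.6 CPM for T cells. No dendritic cell or T cell marker was at 0, whereas 1 gene of the Th2 and innate lymphoid list was at 0 in each Rab44-KO library. The part of these cells in the Ccl17 and Ccl22 values was not tested.

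Ccl20, the ligand of Ccr6 on dendritic cells, B cells and some helper T cells, was close to absent in normal lungs, with 0 counts in WT and 4 in Rab44-KO. A count of 0 allows up to 0.156 CPM at the floor of 3 counts. OVA-induced WT had 109 counts, at least 36.0-fold above that floor, and the exact interval of its log2FC with OVA, which is two-sided and wider, starts at 4.85. OVA-induced Rab44-KO had 12 counts, and the range of its log2FC with OVA, 1.46, spans no difference (-0.23 to 3.58). The genotype difference was 9.06-fold (5.03 to 18.2), with a range that overlaps those of Ccl7 and Ccl11. Ccr6 had 87, 76, 213 and 144 counts and was 1.49-fold lower in OVA-induced Rab44-KO (1.20 to 1.85), which turned to a log2FC of 0.18 when scaled to housekeeping genes. Markers of the airway epithelium, a known source of Ccl20, had 0 of 5 genes over 2-fold lower and 1 over 2-fold higher there (3 when scaled to housekeeping genes). Of all genes 7.34% were over 2-fold lower and 8.4% higher. The markers summed to 21082 against 18096 CPM.

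Ccl9, a ligand of Ccr1 on myeloid cells, had 211, 230, 1662 and 754 counts. It was the member that kept the largest share of its OVA difference in Rab44-KO, where it was 3.07-fold higher with OVA (2.64 to 3.57). In WT it was 7.80-fold higher (6.76 to 9.05), and the OVA-induced genotype difference was 2.22-fold (2.03 to 2.42). Ccr1 had 130, 134, 561 and 435 counts, so it was higher with OVA in both genotypes and 1.30-fold lower in OVA-induced Rab44-KO (1.14 to 1.47). That difference depends on the scaling, with a log2FC of -0.38 as reported, -0.05 in TPM and 0.38 when scaled to housekeeping genes. Neutrophil markers, whose cells carry Ccr1, were over 2-fold higher with OVA for 8 of 8 genes in Rab44-KO and for 7 of 7 with enough counts in WT, where 6.44% and 8.99% of all genes were. They summed to 753 CPM in OVA-induced Rab44-KO and 583 CPM in OVA-induced WT.

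Over the members, 10 of 10 were over 2-fold lower in Rab44-KO among OVA-induced lungs, where 7.34% of 19259 genes with at least 10 counts were. The median log2FC was -2.48 against -0.02 over all genes, all 10 ranges lay below 0, as for 33.8% of genes, and 7 lay wholly beyond 2-fold, as for 2.76%. Each member stayed lower in Rab44-KO under all 12 settings of scale and filter, the reported one included. The count over 2-fold dropped to 9 with total counts, without Ccl22, to 7 when the length trend was removed or TPM were used, without Ccl9, Ccl17 and Ccl22, and to 6 when values were scaled to housekeeping genes, without Ccl12 too. Alveolar macrophage markers were over 2-fold lower for 4 of 8 genes, and 2 of the 8 were higher. They summed to 1116 against 5590 CPM, of which Chil3, a gene that the STAT6-linked list also holds, gave 917 against 5248 CPM. Without it the sum was 199 against 342 CPM, and most of this was Car4, with 118 against 192 CPM. Mast cell and basophil markers were over 2-fold lower for 4 of 7, and their sum of 238 against 170 CPM was 6.46 against 12.1 CPM without Kit. The 4 alveolar macrophage genes became 3 with total counts or the length trend removed and 2 in TPM or scaled to housekeeping genes, and the 4 mast cell and basophil genes became 3 with the length trend removed and 2 with housekeeping scaling. The part of these cells was not tested. Ccl8 ranged from -4.81 to -4.05 over these settings and Ccl22 from -1.06 to -0.30.

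**Figure D2:**
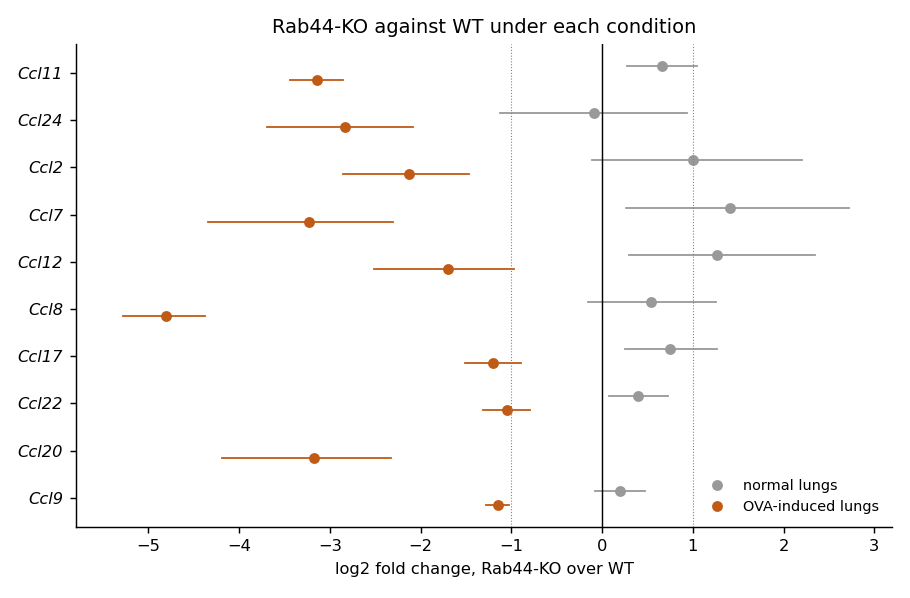
Log2 fold change of Rab44-KO over WT for each chemokine in normal (grey) and OVA-induced (orange) lungs, with exact 95% counting intervals as lines and 2-fold as dotted lines. The 10 OVA-induced points lie left of -1 and 8 of the 9 normal points lie right of 0, and Ccl20 has no normal point because it stayed below 10 counts.

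In normal lungs 2 of 9 members were over 2-fold higher in Rab44-KO, Ccl7 and Ccl12, where 2.77% of 18718 genes were, and 0 were over 2-fold lower, where 2% were. The median log2FC of the 9 was 0.66 against 0.00 over all genes. Ranges lay above 0 for 5 of the 9, Ccl7, Ccl11, Ccl12, Ccl17 and Ccl22, as for 14.6% of genes. These 5 ranges also lay below 0 in OVA-induced lungs, as for 3.32% of genes with at least 10 counts in both conditions, and so did those of Ccl5, Ccl6, Ccr3, Ccr4 and Ccr7 among the other chemokines and receptors. Of the 9 members with enough counts in both conditions, 8 were higher in normal Rab44-KO and over 2-fold lower in OVA-induced Rab44-KO, as were 2.8% of 18233 genes. Among mesothelial markers 3 of 4 were over 2-fold higher in normal Rab44-KO lungs, all 4 higher and summing to 123 against 58.0 CPM, and their part was not tested.

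With OVA, 10 of 10 members were over 2-fold higher in WT, where 8.99% of 19023 genes were, with a median log2FC of 3.06, and 0 were over 2-fold lower, where 5.2% were. Ccl22 was within 2-fold when values were scaled to housekeeping genes. In Rab44-KO lungs 2 of 10 were over 2-fold higher, Ccl9 and, with a range that spans 0, Ccl20, where 6.44% of 19073 genes were, and 1 was over 2-fold lower, Ccl7, where 3.85% were. The median there was -0.07. The WT contrast shares the OVA-induced WT library with the genotype contrast above, so the 2 sets of values are not independent.

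**Figure D3:**
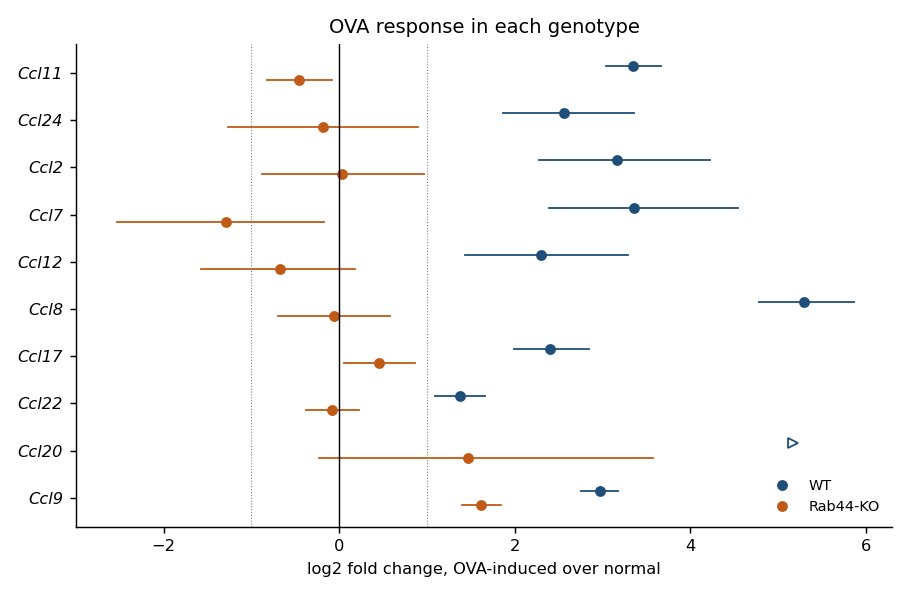
Log2 fold change of OVA-induced over normal lungs for each chemokine in WT (blue) and Rab44-KO (orange), with exact 95% counting intervals as lines and 2-fold as dotted lines. The open triangle is the lower bound for Ccl20 in WT against a floor of 3 counts, and the Rab44-KO points lie near 0 except for Ccl9 and Ccl20 above and Ccl7 below.

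In CPM, the gain with OVA in Rab44-KO was 34.8% of the WT gain for Ccl9, 14.6% for Ccl17, 7.04% for Ccl20 and 0.633% for Ccl2. It was below 0 for the other 6 members, down to -23.1% for Ccl12, and the median over the 10 was -1.21%. The OVA ranges in Rab44-KO of Ccl2, Ccl8, Ccl12, Ccl20, Ccl22 and Ccl24 span no difference. The genotype log2FC in OVA-induced lungs minus that in normal lungs ranged from -1.35 for Ccl9 (-1.65 to -1.04) to -5.35 for Ccl8 (-6.20 to -4.50) among the 9 members with counts in every library.

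Levels can be compared between genes per length, in TPM. The 10 members summed to 49.5, 77.1, 527 and 99.5 TPM. As a share of all listed CC chemokines this was 9.90%, 11.8%, 20.9% and 11.7%. Ccl11 led the members in both normal libraries with 10.8 and 17.4 TPM, although its interval overlapped that of Ccl22, the next in order.

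In OVA-induced WT lungs Ccl8 led with 261 TPM (246 to 276), which was 49.5% of the members' sum. Ccl11 (97.8 TPM) and Ccl9 (60.1 TPM) followed, each apart from its neighbours beyond counting error, whereas Ccl22 and Ccl17 overlapped at 22.9 and 21.8 TPM. Ccl20, Ccl2, Ccl12, Ccl7 and Ccl24 made the lower end, from 14.8 to 9.04 TPM, with each overlapping the next. In OVA-induced Rab44-KO lungs Ccl9 led with 34.0 TPM, 34.1% of the sum, and Ccl8 had 11.7 TPM, not apart from Ccl11, Ccl22 and Ccl17 above it.

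The other CC chemokines give the setting. Of 11, 10 had at least 10 counts in the OVA-induced pair, 6 of them were over 2-fold lower in Rab44-KO and 1 was over 2-fold higher, with a median log2FC of -1.13, where 7.34% and 8.4% of all genes were. The 6 became 4 in TPM, without Ccl5 and Ccl19, and 2 with the length trend removed or housekeeping scaling, Ccl1 and Ccl6. Of these, Ccl1 passed the minimum only through its 10 counts in OVA-induced WT. Its ratio is set by the prior count added to 0 counts in Rab44-KO, so that it remains says little. Ccl6, a myeloid chemokine next to Ccl9, had 2518, 3541, 22238 and 5493 counts and was 4.08-fold lower in OVA-induced Rab44-KO (3.96 to 4.20). The inflammatory chemokines Ccl3, Ccl4 and Ccl5, which draw T cells and macrophages, were lower by log2FC of -1.50, -1.43 and -1.15, and the Ccr7 ligand Ccl19 by -1.12. The Ccr8 ligand Ccl1 had 10 counts in OVA-induced WT and 0 in the other 3, at least 3.36-fold lower in OVA-induced Rab44-KO at the floor of 3 counts, with an exact two-sided interval of the log2FC that ends at -1.17.

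The remaining chemokines were within 2-fold or higher. Ccl21a, which guides dendritic cells and T cells into lymphatics, had a log2FC of -0.62, Ccl25 of -0.45 and Ccl27a of 0.02, and the first 2 turned above 0 when scaled to housekeeping genes. Ccl28, an epithelial ligand of Ccr10, was higher with 18 against 6 counts, and Ccl26 had 0 counts in every library. Ccl21a and Ccl27a belong to groups of near-identical gene copies and, like Ccl6, Ccl19 and Ccl25, overlap another annotated gene, so their counts are uncertain, as are those of the receptors Ccr10, Ackr1 and Ackr4 that overlap other genes.

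Of 10 receptors described, 2 were over 2-fold lower in OVA-induced Rab44-KO (Ccr3 and Ccr4) and 1 over 2-fold higher (Ccr9), with a median log2FC of -0.48, where 7.34% and 8.4% of all genes were, so the share higher is near that of all genes. When scaled to housekeeping genes 1 was lower (Ccr3) and 3 were higher, and the median turned to 0.28. Ccr9, the receptor of Ccl25, had 45 against 103 counts in the OVA-induced pair and overlaps several annotated genes. Ccr8, the receptor of Ccl1 and of mouse Ccl8, had 4, 6, 31 and 36 counts and so was higher with OVA in both genotypes, by 7.48-fold (2.72 to 30.0) in WT and 5.53-fold (2.34 to 16.3) in Rab44-KO. With OVA, 7 of these 10 receptors were over 2-fold higher in WT, where 8.99% of all genes were, and 3 in Rab44-KO (Ccr1, Ccr8 and Ccr10), where 6.44% were. The 7 became 6 in TPM and 4 when scaled to housekeeping genes.

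The other CC receptors described lay within 2-fold. Ccr7, which guides dendritic cells and T cells to lymph nodes, had a log2FC of -0.94, Ccr10 of 0.35 and Ccrl2 of 0.33. Among atypical receptors, which bind chemokines without moving the cell, Ackr2 takes up many inflammatory CC chemokines and had 710, 729, 627 and 954 counts, 1.51-fold higher in OVA-induced Rab44-KO (1.37 to 1.67) and over 2-fold higher with housekeeping scaling. Of the 3 atypical receptors, 1 was over 2-fold lower in OVA-induced Rab44-KO, where 7.34% of all genes were. It was Ackr1, with 43 against 18 counts (log2FC -1.26), which was within 2-fold in TPM (-0.91), with the length trend removed (-0.82) and scaled to housekeeping genes (-0.51). Ackr4 had 203 against 122 counts (log2FC -0.74).

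**Figure D4:**
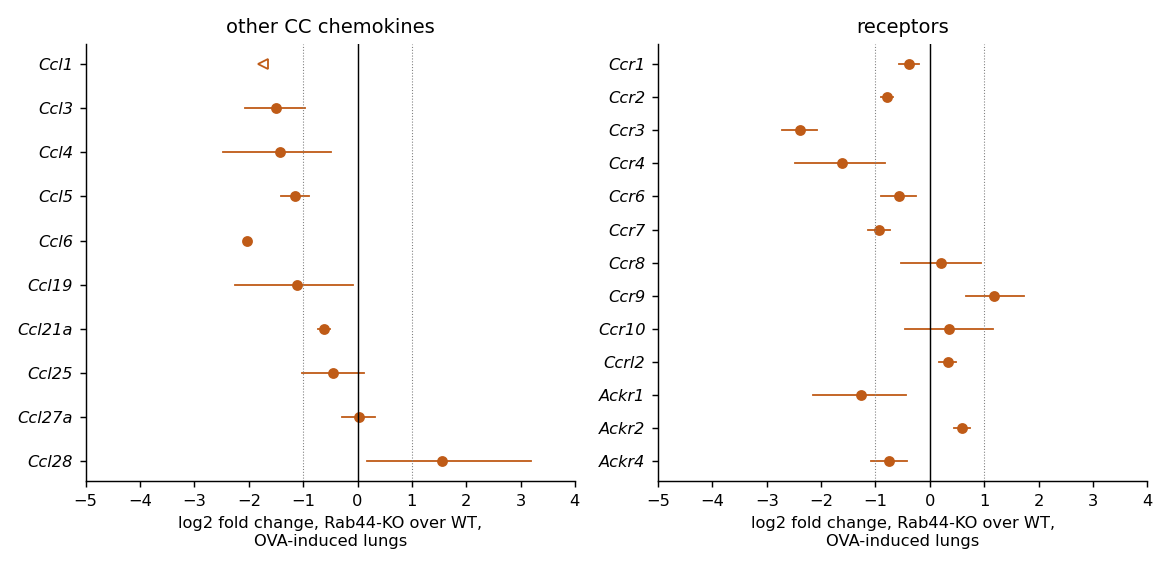
Log2 fold change of Rab44-KO over WT in OVA-induced lungs for the other CC chemokines (left) and for the CC and atypical receptors (right), with exact 95% counting intervals as lines and 2-fold as dotted lines. The open triangle is the bound for Ccl1, which had 0 counts in Rab44-KO, Ccl26 is left out because it had 0 counts in every library, and Ccr3 lies lowest of the receptors.

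Known inducers of the chemokines were listed too. Of 8 type 2 cytokines and alarmins, 4 had enough counts in the OVA-induced pair and 2 of these were over 2-fold lower in Rab44-KO, where 7.34% of all genes were. The 2 were Il13, with 13 against 0 counts, and Il4, with 17 against 6, both named after their values were seen. Both reached the minimum of 10 counts only in OVA-induced WT, so the filter favours a lower value in Rab44-KO. The fold of Il13 also rests on 0 counts in Rab44-KO. The alarmin Il33 had 3834 against 2198 counts (log2FC -0.81, -0.89 to -0.74). Of 10 genes known to respond to STAT6, 9 were over 2-fold lower in OVA-induced Rab44-KO. So were 4 of 8 inflammatory inducers with enough counts, among them Il1a with 156 against 58 counts. The other 4 were within 2-fold, and 1 of these was higher, Nfkbia, with 3613 against 5177 counts (log2FC 0.51, 0.45 to 0.57). The inflammatory list summed to 489 CPM for Rab44-KO against 439 CPM for WT, of which Nfkbia gave 266 against 187 CPM. Of 4 interferon-linked genes with enough counts, 2 were over 2-fold lower, Cxcl9 and Cxcl10, the latter with 107 against 21 counts. Of 8 genes of type 2 signalling, such as Socs1 (134 against 37 counts) and Gata3 (232 against 107), those 2 were over 2-fold lower and the list's median log2FC was 0.03. When scaled to housekeeping genes the counts over 2-fold lower became 8 for the STAT6-linked genes and 1 each for the type 2 and alarmin, inflammatory and type 2 signalling lists, while both interferon-linked genes remained.

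The chromosome 11 members were set beside the other genes around them. Within 1000000 bases on either side, 32 other protein-coding genes had at least 10 counts in the OVA-induced pair, with a median log2FC of 0.06. Of these, 2 were over 2-fold lower in Rab44-KO and 4 over 2-fold higher, shares near the 7.34% and 8.4% of all genes. The lowest was Wfdc17, near Ccl9, with 822 against 231 counts (log2FC -1.84, -2.06 to -1.63), named after its value was seen. This difference was larger than that of Ccl9 (log2FC -1.15, -1.28 to -1.02), and its range overlaps those of Ccl2 and Ccl12 and does not meet those of Ccl7, Ccl8 and Ccl11.

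**Figure D5:**
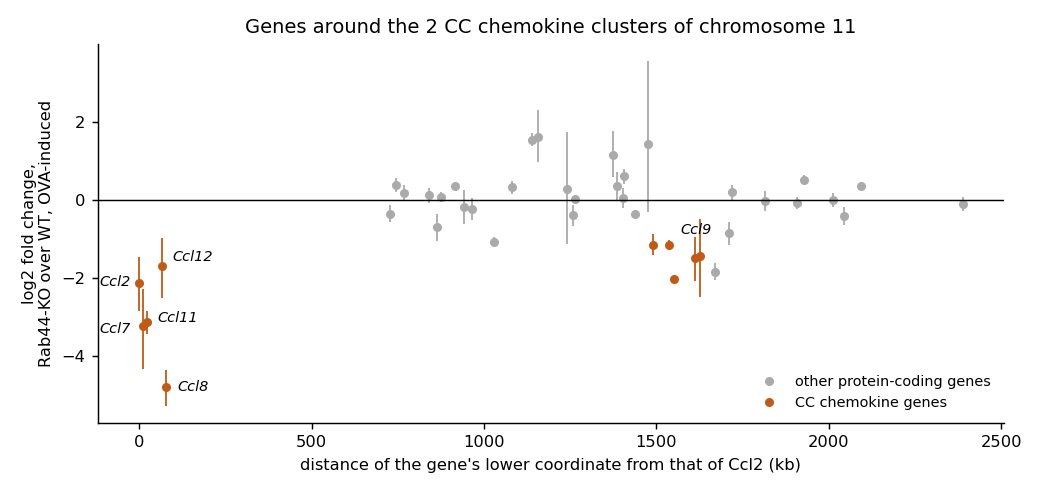
Log2 fold change of Rab44-KO over WT in OVA-induced lungs for protein-coding genes around the CC chemokine genes of chromosome 11, against the distance in kb from Ccl2, with exact 95% counting intervals as vertical lines. The CC chemokine genes (orange, members named) lie below 0 and most other genes (grey) lie around 0, and Ccl1 is not drawn because it had 0 counts in Rab44-KO.

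The genes whose pattern over the 4 libraries was nearest to the mean of the members were Trem2, Igkv12-46, Cxcl9, Ccl6 and Serpina3g, among 13891 candidates with at least 100 counts. Nearness was the Euclidean distance between centred log2 CPM values, and Trem2, a macrophage receptor, was nearest at 0.42 with 41, 60, 390 and 68 counts. The mean is pulled by Ccl20, which had 0 counts in normal WT. Without Ccl20, a choice made after seeing the data, the nearest were Ighv1-52, Trem2, Gapt, Alox15 and H2-M2, so 1 gene was shared by both lists. Members themselves lay between 0.36 for Ccl2 and 4.71 for Ccl20 from their mean.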

How the data were processed

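Lung RNA of 4 libraries was measured, 1 per condition, with groups taken from the labels. The authors aligned 150-bp paired-end reads to GRCm38 with HISAT2 and deposited raw counts per gene from featureCounts, beside TPM, which rescale the counts by gene length. Versions, strand setting and treatment of multi-mapped reads are not given in the sources used here. Deposited gene starts matched GRCm38 annotation for 0.86% (GENCODE M21) and 2.13% (RefSeq) of genes, so positions come from GENCODE M21.

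From the counts, CPM were computed with TMM factors of 0.973 to 1.02 from edgeR 4.0.16 in R 4.3.3. Ratios used a prior count of 0.125 and at least 10 counts in the higher library, and over 2-fold means a log2FC beyond 1. Exact 95% Poisson intervals of CPM and Clopper-Pearson intervals of ratios, and exact intervals of the ratio of ratios, were taken with scipy 1.17.1 in Python 3.11.15 and cover counting error only. With 1 library per condition no test was run and no p-value computed. The steps were tested on simulated data. The text names every member, every listed chemokine, all listed receptors but 1, up to 3 genes with at least 100 counts of other lists, and the 5 nearest patterns. Epx, Prg2, Prg3, Ear1, Ear2, Car4, Il4, Il13, Scgb1a1 and Wfdc17 fall outside this and were named after their values were seen. The same holds for Ighv1-52, Gapt and H2-M2, which were nearest when Ccl20 was left out. Members and lists were chosen with earlier results of these data known. 1 receptor of the fixed lists is not reported here and was left out of the receptor counts. Alternatives used DESeq2 1.42.0 size factors, total counts, 2 other TMM sets, TPM with a pseudocount of 0.1, a prior count of 2, minimums of 1 and 50 counts, thinning, removal of the length trend over 501 genes, a log2FC above 2, and intervals beyond 2-fold. Scaling to housekeeping genes, leaving out Ccl20 and sums without Chil3, Kit or Rora and other scalings of the lists were chosen after seeing the data.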

Additional observations from a re-analysis of the deposited data

Results flagged for a closer look

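For 5 of the members and for 5 other listed genes the Rab44-KO over WT ratio lay above 0 in normal and below 0 in OVA-induced lungs, each with its whole 95% counting interval. The OVA-induced minus normal log2FC was -4.64 for Ccl7, -3.80 for Ccl11, -2.98 for Ccl12, -1.95 for Ccl17 and -1.45 for Ccl22 among the members. It was -1.56 for Ccl5, -2.59 for Ccl6, -2.89 for Ccr3, -3.36 for Ccr4 and -1.20 for Ccr7. Of 18233 genes with at least 10 counts in both conditions, 605 (3.32%) met the same rule. The difference between conditions was not tested, because each condition is 1 library and the intervals cover counting error only. No group had the number of samples needed to look for a sample far from the others.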

How the results depend on the processing

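No paired analysis was possible because each group held 1 library. No library could be left out for the same reason. The count of members over 2-fold lower in OVA-induced Rab44-KO was 10, and it was 9 with total counts, 7 with TPM, with the length trend removed and for intervals beyond 2-fold, 6 above a log2FC of 2 and 6 with scaling to housekeeping genes, a setting chosen after seeing the data. The count of members over 2-fold higher in normal Rab44-KO was 2, and it was 3 with total counts, at least 1 count, thinning, the length trend removed or housekeeping scaling, and 0 with at least 50 counts, 0 above a log2FC of 2 and 0 for intervals beyond 2-fold. With OVA in Rab44-KO, the 2 higher members became 1 with at least 50 counts, 0 above a log2FC of 2 and 1 for intervals beyond 2-fold, and the 1 lower member became 0 in each of these. The drops at 50 counts, above a log2FC of 2 and for intervals beyond 2-fold follow from stricter rules. Scaling to housekeeping genes moved the median log2FC of all genes in the OVA-induced genotype comparison to 0.73 and TPM moved it to 0.29, and the members' values are relative to that. Of 418 single-member values under alternatives, 397 moved by less than counting error, 21 moved by more and 0 with a call changed sign. In 8 the sign differed from the reported one, for Ccl24 in the normal comparison and for Ccl8 and Ccl22 with OVA in Rab44-KO, all near 0. The median OVA-induced minus normal log2FC was -3.05, and -2.98 without Ccl20, also chosen after seeing the data. Low counts limit Ccl2, Ccl7, Ccl12, Ccl20 and Ccl24 most.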
